A study of Drosophila melanogaster with 4 samples.

Results

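The mitochondrial ribosomal protein genes were taken as the protein-coding genes outside chromosome 4 whose Ensembl BDGP6 symbol starts with mRpL or mRpS and a digit. The rule found 73 genes, 47 of the large subunit (mRpL) and 26 of the small subunit (mRpS), of 13865 protein-coding genes on X, 2L, 2R, 3L and 3R. Of the 73, 11 lie on X, 12 on 2L, 12 on 2R, 17 on 3L and 21 on 3R, and 67 have a single annotated transcription start site (TSS). tko and bonsai, which encode small-subunit proteins of the same ribosome under older names, fall outside the rule and were looked at beside it.

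Genome occupancy of histone deacetylase 3 (HDAC3) was profiled by CUT&Tag, in which an antibody directs a protein A-Tn5 transposase to cut and tag the DNA next to its target, in nuclei of whole Drosophila embryos 2-4 h after egg laying. One group was HDAC3 shRNA embryos of the genotype tub-GAL4/shRNA HDAC3, probed with rat anti-HDAC3 in the second round; here a maternal Gal4 driver expresses a hairpin against HDAC3, so that the mothers load depleted eggs. The others were w1118 embryos, which carry neither driver nor hairpin, probed with rat anti-HDAC3 in that second round and with rat and rabbit anti-HDAC3 in the first round. Each combination of genotype, antibody and round is 1 library, so that no difference between libraries has a replicate check, and genotype cannot be told apart from library. The sample labels call both second-round libraries a second replicate. For w1118 with the rat antibody there is thus 1 library in each round. The deposited peak lists hold 102 peaks in HDAC3 shRNA, 1142 in w1118 of the second round, and, in w1118 of the first round, 6258 with the rat and 3645 with the rabbit antibody. Of these, 18, 1030, 6073 and 3392 lie on the 5 arms, in the same order. Read depth is unknown and the lists, which give peaks only, hold no measure of the amount of HDAC3 in the embryos.

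Mitochondrial ribosomes translate the few proteins that the mitochondrial genome encodes, all of them parts of the oxidative phosphorylation machinery. Their own proteins are encoded in the nucleus, made in the cytosol and imported, and the genes are compact and used by nearly every cell. HDAC3 is the catalytic subunit of the SMRTER/NCoR corepressor complex and removes acetyl groups from histones. Divergent promoters, where 2 genes start back to back on opposite strands, are common in the compact fly genome and often belong to broadly used genes, so that a peak between the starts cannot be given to one gene of the pair.

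The sequence around the start is shown for 14 of the 18 genes that carried an HDAC3 peak with both antibodies in the first round, chosen by chromosome arm and not by motif, to show which starts hold 2 short motifs and which do not. Each run goes from 40 bases before the annotated 5′ end of the gene to 30 bases from it on, read 5′ to 3′ on the strand of the gene, from the RefSeq release 6 assembly in dm6 coordinates. Capitals mark the E-box CAGCTG, a palindrome of the kind bound by basic helix-loop-helix proteins, and the DNA replication-related element (DRE) TATCGATA, a palindrome bound by Dref at many housekeeping promoters. E-box means CAGCTG only throughout. Other E-box forms, such as CACGTG in the mRpS14 run, were not searched. The first 6 runs hold an E-box, the next 3 an E-box and a DRE, the next 4 a DRE, and the last neither. Over all 18 genes, 10 hold an E-box and 7 a DRE in this stretch, so that among the 4 not printed 1 holds an E-box and none a DRE.
mRpL2, chr3L:11120807-11120876, plus strand: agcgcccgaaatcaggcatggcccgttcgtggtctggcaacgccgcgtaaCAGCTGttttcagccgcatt
mRpL11, chr3R:14511798-14511867, plus strand: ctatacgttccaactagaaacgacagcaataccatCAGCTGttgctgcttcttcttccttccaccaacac
mRpL21, chr3L:19255032-19255101, minus strand: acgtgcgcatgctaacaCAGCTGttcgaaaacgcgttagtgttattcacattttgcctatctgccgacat
mRpL35, chr3R:22023487-22023556, plus strand: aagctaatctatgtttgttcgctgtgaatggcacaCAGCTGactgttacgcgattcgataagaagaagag
mRpL47, chr3R:9515879-9515948, minus strand: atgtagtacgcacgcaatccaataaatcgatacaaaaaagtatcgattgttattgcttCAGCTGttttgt
mRpS24, chr3R:24163516-24163585, minus strand: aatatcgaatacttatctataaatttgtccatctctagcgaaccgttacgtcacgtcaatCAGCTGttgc
mRpL17, chr3L:264739-264808, plus strand: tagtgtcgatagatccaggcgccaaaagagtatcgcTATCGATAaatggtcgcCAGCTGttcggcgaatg
mRpL32, chr3R:31252832-31252901, plus strand: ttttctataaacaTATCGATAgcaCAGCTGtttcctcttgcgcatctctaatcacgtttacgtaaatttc
mRpS18B, chr2L:20097224-20097293, minus strand: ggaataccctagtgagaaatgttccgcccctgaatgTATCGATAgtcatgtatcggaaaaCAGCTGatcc
mRpL4, chr2L:16329103-16329172, minus strand: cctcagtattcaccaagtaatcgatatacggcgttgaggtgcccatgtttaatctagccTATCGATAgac
mRpL16, chrX:1890216-1890285, plus strand: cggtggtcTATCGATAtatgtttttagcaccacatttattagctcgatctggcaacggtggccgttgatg
mRpL39, chr3L:14999637-14999706, minus strand: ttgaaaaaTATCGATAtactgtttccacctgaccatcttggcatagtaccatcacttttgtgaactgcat
mRpS23, chr2L:13835043-13835112, minus strand: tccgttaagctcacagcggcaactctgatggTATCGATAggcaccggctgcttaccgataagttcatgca
mRpS14, chrX:19480209-19480278, minus strand: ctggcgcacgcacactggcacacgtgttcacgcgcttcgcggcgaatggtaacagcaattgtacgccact

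In mRpL32, whose rabbit peak was the strongest of the list among these genes, the DRE and an E-box lie next to each other near its start, and further E-boxes lie near that of qless. The stretch between both starts is shown whole with the same capitals.
mRpL32 and qless, chr3R:31252609-31252871, plus strand: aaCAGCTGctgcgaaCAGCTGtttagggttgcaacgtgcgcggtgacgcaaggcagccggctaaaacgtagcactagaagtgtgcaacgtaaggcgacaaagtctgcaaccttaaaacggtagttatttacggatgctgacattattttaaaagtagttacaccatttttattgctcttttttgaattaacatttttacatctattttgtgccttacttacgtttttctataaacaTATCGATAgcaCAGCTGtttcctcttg

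The last run is from the mRpS23 locus, the only one of the 73 genes with a peak in HDAC3 shRNA embryos. It is the part of that peak that lies upstream of CenG1A, the divergent neighbour, and holds no E-box, DRE or core of the motif 1 binding protein (M1BP) site, GGTCACAC. Near its CenG1A end it does hold a match to the Zelda site CAGGTA, a motif described below, which reads TACCTG on the printed strand.
CenG1A upstream stretch, chr2L:13835357-13835563, plus strand: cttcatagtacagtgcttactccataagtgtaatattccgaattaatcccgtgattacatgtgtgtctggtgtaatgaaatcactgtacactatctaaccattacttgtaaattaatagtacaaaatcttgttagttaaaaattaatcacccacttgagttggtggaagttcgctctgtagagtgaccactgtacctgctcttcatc

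A peak within 500 bp of a TSS, measured from its nearer edge, was found at 23 of the 73 mitochondrial ribosomal protein genes in the first-round rat list (31.5%, exact 95% interval 21.1% to 43.4%), against 24.9% of all protein-coding genes. In the first-round rabbit list 30 of 73 had one (41.1%, 29.7% to 53.2%), against 22.8% of all protein-coding genes. Peaks of both antibodies that overlapped each other by at least 1 bp, both within 500 bp of the same TSS, were at 18 of 73 (24.7%, 15.3% to 36.1%), against 16.0%. A peak with at least one antibody was at 35 of 73 (47.9%), against 31.4%. The intervals are Clopper-Pearson intervals over genes, take the genes as independent and cover counting error only. Each list is 1 library, so that whether a share falls inside an interval is a description and not a test. The rat and shared shares of all protein-coding genes lie inside the intervals of the mitochondrial ribosomal protein genes, and the rabbit share lies below its interval. Of the 73 genes, 67 have a single annotated TSS, and a gene with further TSSs has more places at which a peak can be counted. Whether this bears on the shares was not tested. Counted from the 5′ end of each gene only, the 23, 30 and 18 genes stayed and the shares of all protein-coding genes were 22.4% in the rat list, 21.1% in the rabbit list and 14.3% for shared peaks, the last now just below the interval of 15.3% to 36.1%.

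The second-round lists are much shorter. In HDAC3 shRNA embryos 1 of 73 genes had a peak (1.37%, 0.0347% to 7.40%), against 0.0649% of all protein-coding genes, which is 9 genes in all. In w1118 of the same round 5 of 73 had one (6.85%, 2.26% to 15.3%), against 5.06%. All 5 also had a shared peak in the first round, and the 1 in HDAC3 shRNA embryos was among them. In both rounds no gene had more than 1 peak in any list.

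The 73 genes thus fell into 6 patterns. mRpS23 had a peak in all 4 lists. mRpL4, mRpL53, mRpS14 and mRpS16 had one in every w1118 list. A further 13 had a shared peak in the first round only: mRpL2, mRpL11, mRpL16, mRpL17, mRpL21, mRpL32, mRpL35, mRpL39, mRpL42, mRpL43, mRpL47, mRpS18B and mRpS24. Rat peaks alone were at 5 genes, mRpL24, mRpL34, mRpL51, mRpS11 and mRpS21, and rabbit peaks alone at 12, mRpL14, mRpL22, mRpL27, mRpL37, mRpL48, mRpL54, mRpL55, mRpS7, mRpS10, mRpS17, mRpS26 and mRpS31. The remaining 38 genes had none in any list, and the nearest rat peak lay beyond 500 and up to 3000 bp away at 9 of the 73 and a rabbit peak at 11.

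Both subunits of the ribosome were represented. Shared peaks were at 13 of 47 large-subunit genes (27.7%, 15.6% to 42.6%) and 5 of 26 small-subunit genes (19.2%, 6.55% to 39.4%), against 16.0% of all protein-coding genes, and these intervals overlap over most of their length. With at least one antibody the counts were 23 of 47 (48.9%) and 12 of 26 (46.2%), against 31.4%. By chromosome arm, shared peaks were at 2 of 11 on X (18.2%, against 16.8% of all protein-coding genes there), 3 of 12 on 2L (25.0%, against 15.7%), 4 of 12 on 2R (33.3%, against 15.5%), 4 of 17 on 3L (23.5%, against 16.4%) and 5 of 21 on 3R (23.8%, against 15.7%).

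**Figure D1:**
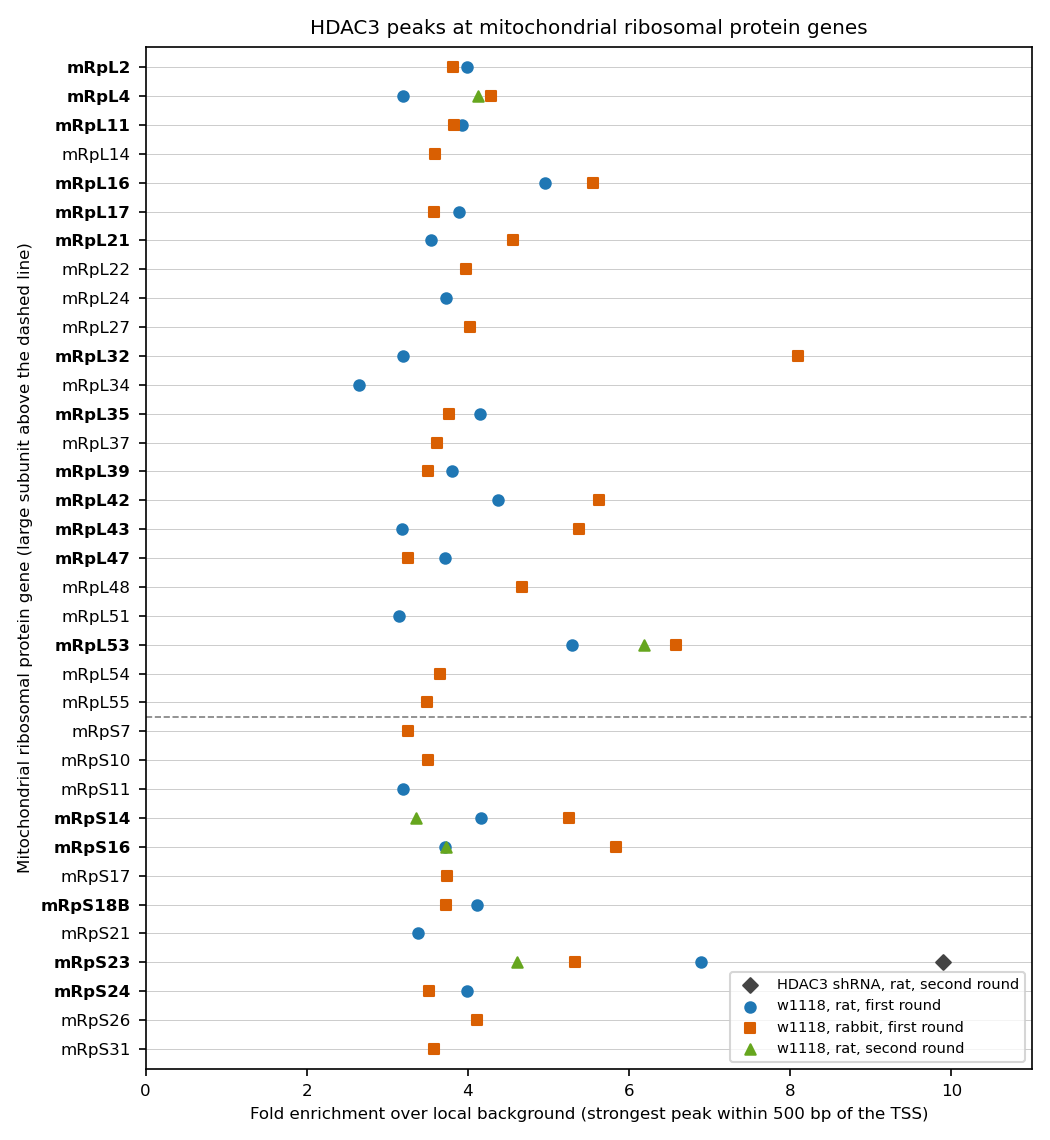
Fold enrichment over the local background (x axis) of the HDAC3 peak within 500 bp of the TSS of each of the 35 mitochondrial ribosomal protein genes with a peak (y axis, large subunit above the dashed line, genes with a shared peak in bold). Each point is 1 peak of 1 library; most lie between 3 and 6, with mRpL32 at 8.10 in the rabbit list and mRpS23 at 9.90 in HDAC3 shRNA embryos.

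Peak strength was that of an ordinary promoter peak. The fold enrichment, the pile-up at the peak over the local background of the same library, had a median of 3.80 over the 23 rat peaks of these genes and of 3.84 over the peaks of all protein-coding genes with one. In the rabbit list the medians were 3.82 and 3.89, and in the second-round w1118 list 4.13 over 5 peaks and 3.68. The values of the plot of fold enrichment by gene ranged from 2.65, at mRpL34, to 6.89, at mRpS23, in the rat list and from 3.25, at mRpS7, to 8.10, at mRpL32, in the rabbit list. Fold enrichment is set by the background of each library, so that it ranks peaks within a list and is not compared between lists.

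mRpS23, a small-subunit protein gene on 2L, starts 492 bp from CenG1A, which encodes an Arf GTPase-activating protein and runs the other way. Its peak had a fold enrichment of 9.90 in HDAC3 shRNA embryos, at percentile 88.24 of that list, with a −log10 q of 14.9. In w1118 of the second round the fold enrichment was 4.61, at percentile 86.95 of that list, with a −log10 q of 4.72. The percentiles are thus close, but each is taken over all peaks of its list. Only 18 of the 102 HDAC3 shRNA peaks lie on the 5 arms, against 1030 of 1142 in w1118. Apart from mRpS23 and CenG1A, the strongest HDAC3 shRNA peak within 500 bp of a protein-coding TSS had a fold enrichment of 4.91. The fold enrichments themselves are not compared between the lists. In the first round the values were 6.89 with the rat antibody, above 96.9% of that list, and 5.33 with the rabbit antibody. The HDAC3 shRNA peak spanned 13835357 to 13835609 on 2L in dm6 coordinates. It covered the CenG1A TSS at 13835564 and ended 285 bp short of the mRpS23 TSS at 13835072, with 207 of its 253 bp between the starts. The rabbit peak had almost the same extent, with its edge 287 bp from the mRpS23 TSS, whereas the rat peak of the first round reached to 11 bp from that TSS and the second-round w1118 peak covered both starts.

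mRpL53, a large-subunit gene on 2R, starts 170 bp from AGO1, the Argonaute of the microRNA pathway. Its fold enrichment was 6.19 in w1118 of the second round, 5.29 with the rat and 6.58 with the rabbit antibody in the first round, the strongest second-round value among these genes in w1118. Both first-round peaks covered both TSSs, and the second-round peak covered that of AGO1 and stopped 144 bp from that of mRpL53. There was no HDAC3 shRNA peak here.

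mRpS16, on 2R, starts 97 bp from combgap (cg), a zinc-finger protein gene. Its peaks had fold enrichments of 3.73 in w1118 of the second round, 3.71 with the rat and 5.84 with the rabbit antibody in the first round. The rabbit peak, 1533 bp wide with a −log10 q of 17.8, and the rat peak, 231 bp wide, covered the cg TSS and ended 16 and 18 bp before that of mRpS16. mRpS14, on X, starts only 21 bp from Naa15-16, an auxiliary subunit of an N-terminal acetyltransferase, and its peaks covered both TSSs in all 3 w1118 lists, with fold enrichments of 3.36 in the second round, 4.16 with the rat and 5.26 with the rabbit antibody.

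mRpL4, on 2L, is the exception among these 5, since it has no divergent neighbour. Its rat peak in the first round covered the TSS with a fold enrichment of 3.19, a value above only 15.4% of that list. The rabbit peak (4.29) lay 202 bp and the second-round w1118 peak (4.13) 5 bp inside the gene. mRpL14, on X, was the other gene without a divergent neighbour to have a peak, of 3.59 in the rabbit list only, which covered its TSS.

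Of the genes with a shared peak in the first round, mRpL16 followed mRpS23 and mRpL53 in rat fold enrichment, with 4.96 and, in the rabbit list, 5.55. It starts 306 bp from trithorax-related (trr), a histone H3 lysine 4 methyltransferase gene; both peaks covered the trr TSS, and the rabbit peak alone reached that of mRpL16. mRpL42 (4.38 rat, 5.63 rabbit), 136 bp from the glycosylphosphatidylinositol anchor enzyme gene PIG-N, was unlike most others, as both peaks covered its own TSS and not that of the neighbour. mRpL35 (4.14 rat, 3.77 rabbit) starts 192 bp from Mitofilin, whose product shapes the mitochondrial cristae, and both peaks covered both starts. mRpL11 (3.92 rat, 3.83 rabbit) starts 126 bp from the mitochondrial protease gene HtrA2; here neither peak reached the mRpL11 TSS. mRpL2 (3.99 rat, 3.81 rabbit) starts 64 bp from the forkhead gene FoxK; the rat peak covered both starts, whereas the rabbit peak lay on the FoxK side, beyond its start and 289 bp from the mRpL2 TSS.

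mRpS18B (4.11 rat, 3.73 rabbit) and mRpS24 (3.98 rat, 3.51 rabbit) were just inside the 500 bp limit in the rat list, with peaks 420 and 427 bp away. Both rat peaks lie beyond the start of the neighbour, Kua at 328 bp and Apc2 at 421 bp. Just outside the limit were mRpS35, whose nearest rat peak is 611 bp away, and mRpS31, at 928 bp. mRpL32, on 3R, was singled out after its values were seen, because the ranks of its peaks in the 2 first-round lists differ most: the rabbit peak had a fold enrichment of 8.10 and stood above 98.6% of its list, and the rat peak one of 3.19, above 15.5% of its list. Both covered the TSSs of mRpL32 and of qless, a gene for the side chain of coenzyme Q.

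Among genes with a rabbit peak and no rat peak, the strongest were mRpL48 (4.67), mRpS26 (4.12), mRpL27 (4.03), mRpL22 (3.98) and mRpS17 (3.74). The rabbit peaks covered the TSS of mRpL22 and mRpL27, whose peak also covered that of CG15435. At mRpS26 the peak began 22 bp inside the gene, at mRpL48 it stopped 62 bp upstream, and at mRpS17 it lay 385 bp away over the start of Nop60B, which encodes the pseudouridine synthase of box H/ACA particles. bonsai had a rat peak of 3.72 and a rabbit peak of 5.06, both over its TSS, 43 bp from Cdk9, and tko had none in any list.

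A divergent neighbour, meaning another protein-coding gene that starts upstream on the opposite strand within 500 bp, was found for 53 of the 73 genes (72.6%, 60.9% to 82.4%), against 27.4% of all protein-coding genes. Its share was alike in the large (34 of 47) and the small subunit (19 of 26). The distance between the starts ranged from 20 to 499 bp, with a median of 264 bp against 245 bp for all such genes. The genes are also short, with a median length of 909 bp against 2156 bp.

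The difference in peak share between the mitochondrial ribosomal protein genes and all genes was smaller among genes with such a neighbour. In the rat list 22 of 53 had a peak (41.5%, 28.1% to 55.9%), against 40.0% of all protein-coding genes with a divergent neighbour. In the rabbit list 28 of 53 had one (52.8%, 38.6% to 66.7%), against 42.6%, and for shared peaks 17 of 53 did (32.1%, 19.9% to 46.3%), against 29.4%. All 3 background shares lie inside these intervals. Among genes without a divergent neighbour the rat count was 1 of 20 (5.0%, 0.127% to 24.9%), against 19.2%. The rabbit count was 2 of 20 (10.0%, 1.23% to 31.7%), against 15.3%, and the shared count 1 of 20 (5.0%), against 10.9%. The plot of shares sets these values side by side.

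**Figure D2:**
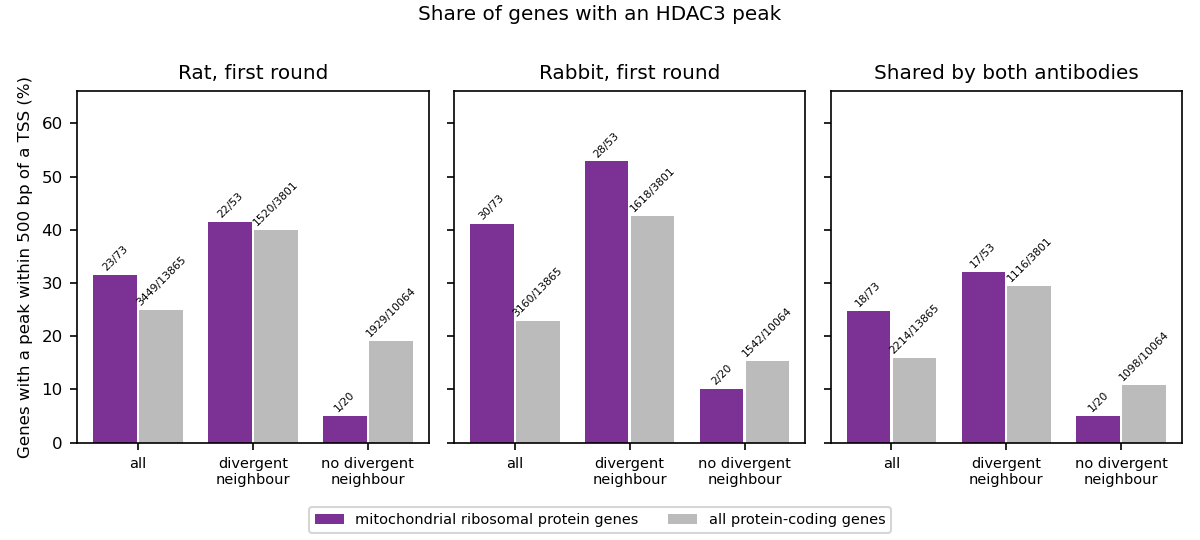
Share of genes with a peak within 500 bp of a TSS (y axis, %) for the mitochondrial ribosomal protein genes (purple) and all protein-coding genes (grey), in all genes and split by a divergent protein-coding neighbour, with the counts above the bars. With a neighbour, the purple and grey bars are 41.5% and 40.0% in the rat list; without one they are 5.0% and 19.2%.

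Where a mitochondrial ribosomal protein gene with a divergent neighbour had a peak, the neighbour had one within 500 bp of its TSS too, in 22 of 22 pairs of the rat list and 28 of 28 of the rabbit list. The reverse held but for 1 pair in the rat list, where hzg had a peak and mRpS31 did not, and 1 in the second-round w1118 list, where FoxK did and mRpL2 did not. With starts under 500 bp apart most such peaks are in reach of both genes, so that the window itself ties the pair together.

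Within the pairs, the first-round rat peaks lay more often on the side of the neighbour. Of the 22 rat peaks at genes with a divergent neighbour, 8 covered the TSS of the mitochondrial ribosomal protein gene (36.4%), against 59.8% of the 1457 protein-coding genes with a divergent neighbour and a rat peak within 500 bp of the TSS of the pair. Of the 22, 6 covered both TSSs, 2 the own TSS only, 6 that of the neighbour only and 8 neither. The middle of the peak was nearer to the own TSS in 5 of 22 (22.7%), against 52.0%, and nearer to the neighbour in 17. Both genes of a pair can enter the background, where the same peak then counts once as nearer to the own TSS and once as nearer to the neighbour. In each list the background share of nearer middles is thus largely set by the counting. In the rabbit list 16 of 28 covered the own TSS (57.1%), against 63.6% of 1573 such genes, with 10 over both, 6 over the own only, 5 over that of the neighbour only and 7 over neither, and the middle was nearer to the own TSS in 13 (46.4%), against 51.0%. The shares were thus further from those of all such genes with the rat than with the rabbit antibody, each being 1 library, and the difference between the antibodies was not tested. The median position of the middle of the peak relative to the own TSS, negative when upstream, was −284 bp in the rat list and −150 bp in the rabbit list, against −106 and −112 bp for all protein-coding genes with a divergent neighbour. In the second-round w1118 rat list, with 4 such peaks, 3 covered the own TSS, against 45.6% of 248 such genes, which is the opposite order to the first round, while the middle was nearer to the own TSS in 1 (25.0%), against 54.4%. Positions were taken from the TSS of the pair, also where a gene has further TSSs.

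**Figure D3:**
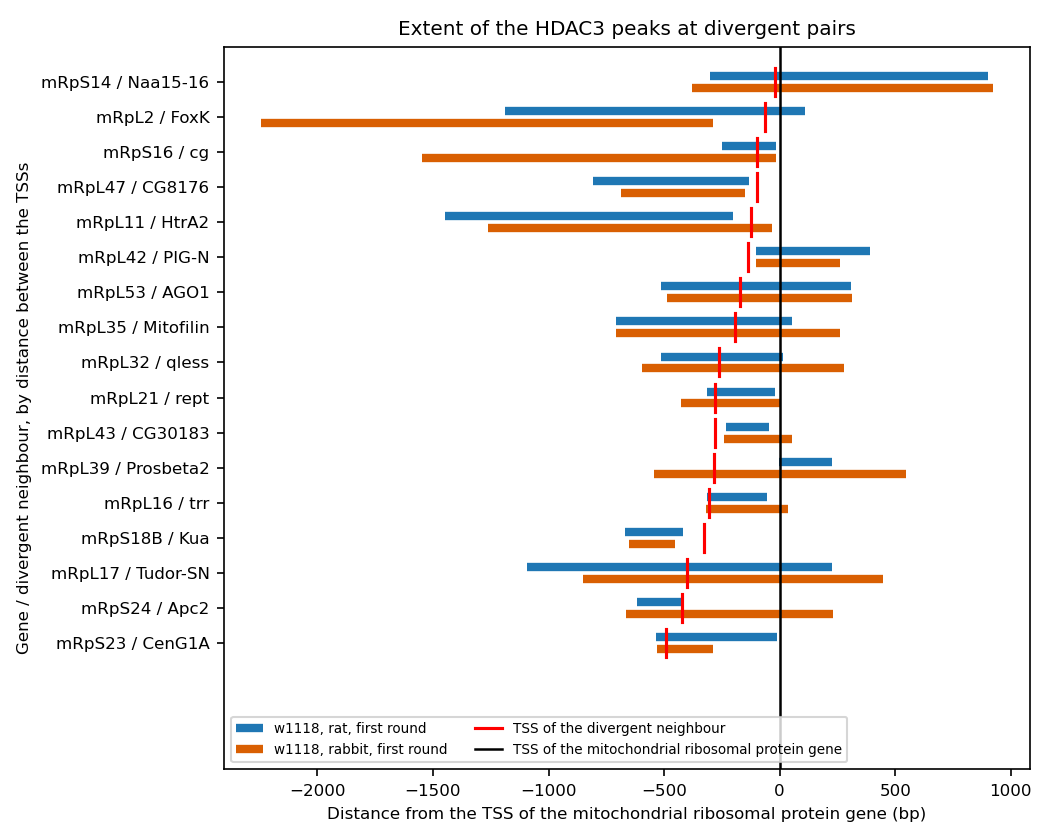
Extent of the first-round rat (blue) and rabbit (orange) peaks at the 17 mitochondrial ribosomal protein genes with a shared peak and a divergent neighbour, as distance in bp (x axis) from the TSS of the mitochondrial ribosomal protein gene (black line, transcribed to the right), with the TSS of the neighbour in red. Pairs run from mRpS14, 21 bp from its neighbour, to mRpS23, 492 bp; at mRpL11, mRpL47, mRpS16, mRpS18B and mRpS23 both peaks lie left of the black line.

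The 6 motifs were searched on both strands from 250 bp before to 50 bp after the annotated 5′ end. The E-box shown above was in 40 of the 73 windows (54.8%), against 17.7% of the windows of all protein-coding genes. It was as frequent in genes with a divergent neighbour, 29 of 53 (54.7%), where 25.2% of all such genes held it, as in those without, 11 of 20 (55.0%), where 14.9% did. In the cytosolic ribosomal protein genes it was in 9.89% of 91 windows. The DRE was in 15 of 73 (20.5%), against 9.36%, the M1BP core in 8 (11.0%), against 7.72%, and the Zelda site CAGGTA, bound by the pioneer factor of the early zygotic genome, in 7 (9.59%), against 6.24%. Among genes with a divergent neighbour the DRE was in 8 of 53 (15.1%), against 17.5% of all such genes. Among those without one it was in 7 of 20 (35.0%), against 6.29%. For the M1BP core the counts were 7 of 53 (13.2%), against 14.7%, and 1 of 20 (5.0%), against 5.10%. In the cytosolic ribosomal protein genes the DRE was in 30.8% of windows and the M1BP core in 16.5%. The GAGA site GAGAG was in 12 (16.4%), against 29.8%, and the TATA box TATAAA in 34 (46.6%), against 45.8%. No motif contains another, though matches can share end letters, and a match is a run of letters and not a bound site.

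**Figure D4:**
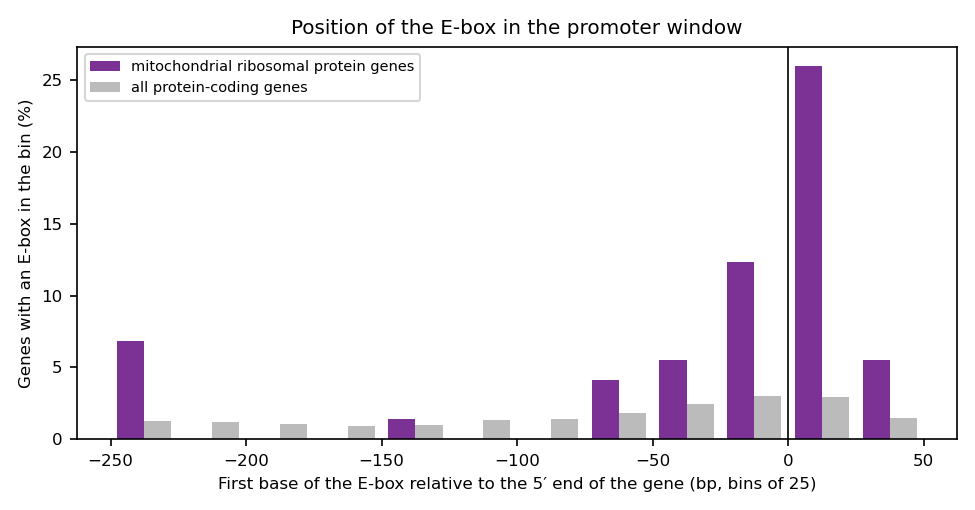
Percentage of mitochondrial ribosomal protein genes (purple) and of all protein-coding genes (grey) with an E-box whose first base falls in each 25 bp bin (x axis, bp from the 5′ end of the gene). The purple bars are highest at the start, at 26.0% from 0 to 24 bp and 12.3% in the bin before, where the grey bars are 2.96% and 2.97%.

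The E-boxes were most frequent close to the start of the gene, as the plot of their position shows. A smaller group lay at the far edge of the window. There, 5 of the 73 genes (6.85%) had a first base from 250 to 226 bp before the 5′ end, against 1.255% of all protein-coding genes. A first base from 0 to 24 bp after the 5′ end was found in 19 of the 73 genes (26.0%), against 2.96% of all protein-coding genes, and one from 25 to 1 bp before it in 9 (12.3%), against 2.97%. In the 70 bases of the runs printed above, a window set after these positions were seen, 31 of 73 genes held an E-box (42.5%), against 7.15% of all protein-coding genes and 5 of 91 cytosolic ribosomal protein genes. The same 70 bases held a DRE in 12 of 73 (16.4%), against 4.39% of all protein-coding genes and 11 of 91 cytosolic ribosomal protein genes (12.1%). With a divergent neighbour the DRE count was 7 of 53 (13.2%), against 8.63% of all such genes.

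Set against occupancy, the E-box in the longer window was in 12 of the 18 genes with a shared peak (66.7%) and in 28 of the 55 without (50.9%), against 20.8% and 17.2% of all protein-coding genes with and without one. The DRE was in 7 of 18 (38.9%) and 8 of 55 (14.5%), against 14.6% and 8.36%. The M1BP core was in 1 of 18 (5.56%) and 7 of 55 (12.7%), against 15.6% and 6.21%, the reverse order to that of all protein-coding genes. The Zelda site was in 0 of 18 and 7 of 55 (12.7%), against 7.86% and 5.93%. These counts are small and are given as a description.

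The other nuclear genes of mitochondrial gene expression and respiration gave a mixed picture. These sets, and the cytosolic ribosomal protein genes, were taken by gene symbol and include like-named genes such as COX4L, COX7AL and RpL24-like. Shared peaks were at 3 of 15 mitochondrial aminoacyl-tRNA synthetase genes, AlaRS-m, ArgRS-m and AspRS-m, which charge the mitochondrial tRNAs, at none of 9 translation factor genes and at 1 of 14 genes for mitochondrial DNA and transcript maintenance, mtTFB1. Neither TFAM, which packages mitochondrial DNA, nor PolrMT, the mitochondrial RNA polymerase, had a peak in any list. Of the oxidative phosphorylation genes of complexes I, III and IV and ATP synthase, 11 of 78 had a shared peak (14.1%), against 16.0% of all protein-coding genes. Complex II was not included. The counts were 3 of 39 for complex I, 1 of 9 for complex III, 5 of 16 for complex IV and 2 of 14 for ATP synthase. With the rabbit antibody 27 of these 78 had a peak (34.6%) and with the rat antibody 16 (20.5%). The cytosolic ribosomal protein genes had a rat peak at 16 of 91 (17.6%), a rabbit peak at 34 (37.4%) and a shared peak at 15 (16.5%). In both of these sets, as in the mitochondrial ribosomal protein genes, the rabbit share was above the rat share, whereas among all protein-coding genes it was below it, 22.8% against 24.9%. The order is not particular to these sets. Among all protein-coding genes with a divergent neighbour the rabbit share was also above the rat share, 42.6% against 40.0%. Among those without one it was below, 15.3% against 19.2%. A divergent neighbour was found for 36 of the 78 (46.2%) and for 36 of the 91 (39.6%).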

How the data were processed

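CUT&Tag reads were trimmed with Trim Galore, mapped to dm6 with Bowtie2 and turned into peaks with MACS2 by the authors, 1 list per library; versions and options are not given in the sources used here. The deposited lists give each peak a fold enrichment (a ratio over the local background of the library), a −log10 p and −log10 q, and a score, 10 times the −log10 q that served no separate purpose here. All 4 lists begin at a −log10 q of about 1.60. Depth is unknown, since no read counts were analysed here.

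Peaks were assigned to TSSs of Ensembl release 115 gene models (BDGP6, the assembly of dm6) with Python 3.11.15, pandas 2.3.3, numpy 2.4.6 and scipy 1.17.1, by the nearer peak edge. The code was tested on simulated peaks. Intervals are exact (Clopper-Pearson, 95%) over genes. With 1 library per combination no test between libraries was made and no p-value is given. Genes described singly were those with a second-round peak, the 10 with the strongest rat peak among shared ones, the 5 strongest with a rabbit peak alone, the 2 on either side of the 500 bp limit in the rat list, tko and bonsai. The genes, lists and motifs were chosen with earlier results of these data known. Sequences are from the RefSeq release 6 assembly; none was printed from 2R. Alternatives varied the window, the assignment rule, the peak threshold, the number of peaks, the overlap and the motif search.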

Additional observations from a re-analysis of the deposited data

How the results depend on the processing

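Of 64 alternative values, 40 stayed within 1.5 times of the reported count, or within the interval of the reported median, and 24 did not. Counts below run in the order rat, rabbit and shared of the first round, against 23, 30 and 18 as reported. The order against all protein-coding genes did not always hold. The share of the mitochondrial ribosomal protein genes was the higher in 6 of 10 rat, 9 of 10 rabbit and 8 of 11 shared alternatives. It was not higher in the remaining 4, 1 and 3. A peak given only to the nearest TSS by its edge left 11, 20 and 9 (15.1%, 27.4% and 12.3% of the 73 genes, against 21.5%, 19.2% and 13.0% of all protein-coding genes). Given only to the gene of the TSS nearest to its middle, a rule chosen after seeing the data, it left 6, 13 and 4 (8.22%, 17.8% and 5.48%, against 18.9%, 16.1% and 9.98%), and 1 in w1118 of the second round (1.37%, against 4.05%). Without the 54 genes that have another protein-coding TSS within 500 bp, 1, 2 and 1 of 19 remained (5.26%, 10.5% and 5.26%, against 18.7%, 14.9% and 10.5% of 9570 genes), with 1 in w1118 of the second round (5.26%, against 4.10%) and a median rat fold enrichment of 3.19 from that 1 gene. Peaks with a −log10 q of at least 3 gave 12, 13 and 7 (16.4%, 17.8% and 9.59%, against 13.9%, 9.14% and 6.03%). The 1142 strongest peaks of each first-round list gave 3, 11 and 3 (4.11%, 15.1% and 4.11%, against 5.11%, 7.18% and 2.98%). The single HDAC3 shRNA count became 0 under both nearest-TSS rules, within 250 bp, and without genes near another TSS. Divergent neighbours within 250 bp were at 25 genes (34.2%, against 14.2%). With 1 mismatch the DRE was in 33 genes (45.2%, against 27.6%) and the M1BP core in 14 (19.2%, against 22.8%). An E-box count with 150 bp on either side, also chosen after seeing the data, was 42. No paired analysis was possible because each combination of genotype, antibody and round is 1 library.

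The limits are the lists themselves: 1 library per combination, no depth, no signal outside called peaks, and a w1118 reference that lacks the Gal4 driver. Absence from a list is therefore absence of a called peak, not of HDAC3. Loss of peaks in HDAC3 shRNA embryos cannot be told apart from a library with few called peaks.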

Other observations

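The spacing of the divergent pairs, looked at after the values were seen, gave no steady order. With starts up to 100 bp apart a rat peak was at 6 of 18 mitochondrial ribosomal protein genes (33.3%), against 46.2% of all protein-coding genes with such a neighbour. Above 100 and up to 250 bp it was at 5 of 7 (71.4%), against 40.2%, and above 250 and up to 500 bp at 11 of 28 (39.3%), against 37.0%. In the rabbit list the counts were 7 of 18 (38.9%, against 48.7%), 5 of 7 (71.4%, against 40.3%) and 16 of 28 (57.1%, against 41.2%). The 18 closest pairs thus had the lowest share with both antibodies, while the classes are small.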
